A study of Mus musculus with 6 samples.

Results

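The NRF2 and antioxidant genes Hmox1, Nqo1, Gclc, Gclm, Txnrd1, Srxn1, Slc7a11, Prdx1, Prdx6 and Gsta4 were examined in stellate cells isolated from mouse liver and collected at day 1 of culture; these cells line the sinusoids and store vitamin A. The 10 genes were taken by name out of 17909 gene identifiers listed in at least 1 of 6 RNA-seq libraries, and each of them was listed in every library. The HAS2_Tg group (replicates 4, 5 and 6) came from mice carrying a human HAS2 transgene under the alpha smooth muscle actin (ASMA) promoter, which is active in activated stellate cells and smooth muscle, and the Has2_KO group (replicates 7, 8 and 9) from mice labelled HSC-specific Has2 KO, made by the Lrat-Cre/loxP system, in which Lrat drives Cre in stellate cells (HSC). HAS2 is a synthase of the matrix polysaccharide hyaluronan. All mice were C57BL/6 males of 24 weeks, and all cells were depleted of macrophages with Cd11b beads, allowed to attach for 4 h and cultured for a further 14 h with 10% serum. The sources used here give no wild-type group, so a difference between the groups cannot be assigned to the transgene or to the deletion, and they do not say whether the 3 libraries of a group came from separate animals, so the p-values measure only the spread between these libraries.

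NRF2, encoded by Nfe2l2, is a transcription factor that KEAP1 marks for degradation in unstressed cells. Oxidants and electrophiles disable KEAP1, and NRF2 then pairs with small MAF proteins on antioxidant response elements and raises the genes of glutathione synthesis, thioredoxin recycling, quinone reduction and heme breakdown. BACH1, a heme-sensing repressor, competes for the same elements. Oxidative stress and its control have long been studied in stellate cells because oxidants accompany their activation during liver fibrosis.

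Libraries held between 11961726 and 12423220 expected counts. Mouse Has2 stood at 16.4, 17.3 and 15.9 FPKM (a level adjusted for gene length and sequencing depth) in HAS2_Tg and at 0.02 FPKM in each Has2_KO library, which goes with the knockout label. The human transgene was not analysed here, and whether any of its reads were counted as mouse Has2 was not examined. Defining stellate cell genes were present in both groups, and the 16 stellate markers on the list took 1.17% to 1.28% of counts in HAS2_Tg and 0.903% to 0.941% in Has2_KO. Of these, 12 rose in HAS2_Tg and none fell in the test described below. Among all genes tested 20.2% were called higher and 20.5% lower, shares to be read beside every marker list here. When libraries were scaled by total counts, 11 stellate markers rose and 1 fell, beside 11.3% higher and 37.1% lower among all genes. The 18 macrophage markers took 0.00134% to 0.00159% of counts in HAS2_Tg and 0.0677% to 0.0724% in Has2_KO, and all 17 tested were lower in HAS2_Tg, with Clec4f and Timd4 at 0 in every HAS2_Tg library. The 16 sinusoidal endothelial markers, all of them lower in HAS2_Tg, took 0.00226% to 0.00259% of counts in HAS2_Tg and 0.107% to 0.117% in Has2_KO, with Gpihbp1 and Emcn at 0 in HAS2_Tg. The genes at 0, 2 in each of these lists, were chosen after their values were seen, and the other markers of both lists had counts in HAS2_Tg. Hepatocyte, neutrophil and cholangiocyte markers took at most 0.00522% of counts in any library, with 7 of 7, 2 of 3 and 4 of 4 tested genes lower. The shares of all these lists did not overlap between groups. Portal fibroblast and smooth muscle markers took 0.164% to 0.188% in HAS2_Tg and 0.0437% to 0.0463% in Has2_KO, with 5 of 10 tested genes higher and 4 lower. Myh11, Lmod1, Notch3, Eln and Smtn were higher, and Thy1, Cd34, Fbln2 and Dpt were lower. In HAS2_Tg Myh11 had the most counts of this list, with 15092, 12897 and 15252, against 1409, 1348 and 1510 in Has2_KO. Many marker genes passed the count filter only through Has2_KO: 13 of 17 tested for macrophages, 12 of 16 for endothelium and 7 of 7 for hepatocytes. The same held for 1 of 3 neutrophil, 3 of 4 cholangiocyte and 2 of 10 portal fibroblast and smooth muscle markers. The counts of calls for these lists are therefore a description. In such bulk samples fewer cells of a type and less RNA per cell cannot be told apart.

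Of the 10 genes, 9 fell in HAS2_Tg and 1, Slc7a11, rose. The sizes of the 9 falls lay close together, between 1.35-fold for Txnrd1, the cytosolic thioredoxin reductase, and 2.03-fold for Prdx6, a peroxiredoxin with phospholipase activity. Slc7a11, the cystine-carrying subunit of the cystine/glutamate exchanger, was 1.70-fold higher in HAS2_Tg. Calls are from edgeR's quasi-likelihood test over 13014 genes at an adjusted p of 0.05 (Benjamini-Hochberg), and every log2 fold change below is HAS2_Tg minus Has2_KO. Among all genes tested, 20.5% were called lower, 20.2% higher and 40.7% in either direction in HAS2_Tg. The 9 of 10 lower is a larger share than that background, and the 1 of 10 higher is not. The 10 genes were chosen with earlier results of these data known, so this comparison is a description and not a test. The median log2 fold change of the 10 genes was -0.71, against -0.01 for all genes tested.

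The deposited FPKM values are scaled by library depth, whereas the fold changes are scaled by TMM, a trimmed mean over genes. With total counts the median of all genes was -0.18, and 37.1% of genes were called lower and 11.3% higher. All 10 calls and directions stood under both scalings. The change of scaling moves all genes by nearly the same amount, to -0.99 for Hmox1 and 0.59 for Slc7a11. All 10 genes had FPKM values that did not overlap between the groups, but such separation was common: 57.4% of all genes tested did not overlap, 43.8% being lower in HAS2_Tg and 13.7% higher.

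**Figure D1:**
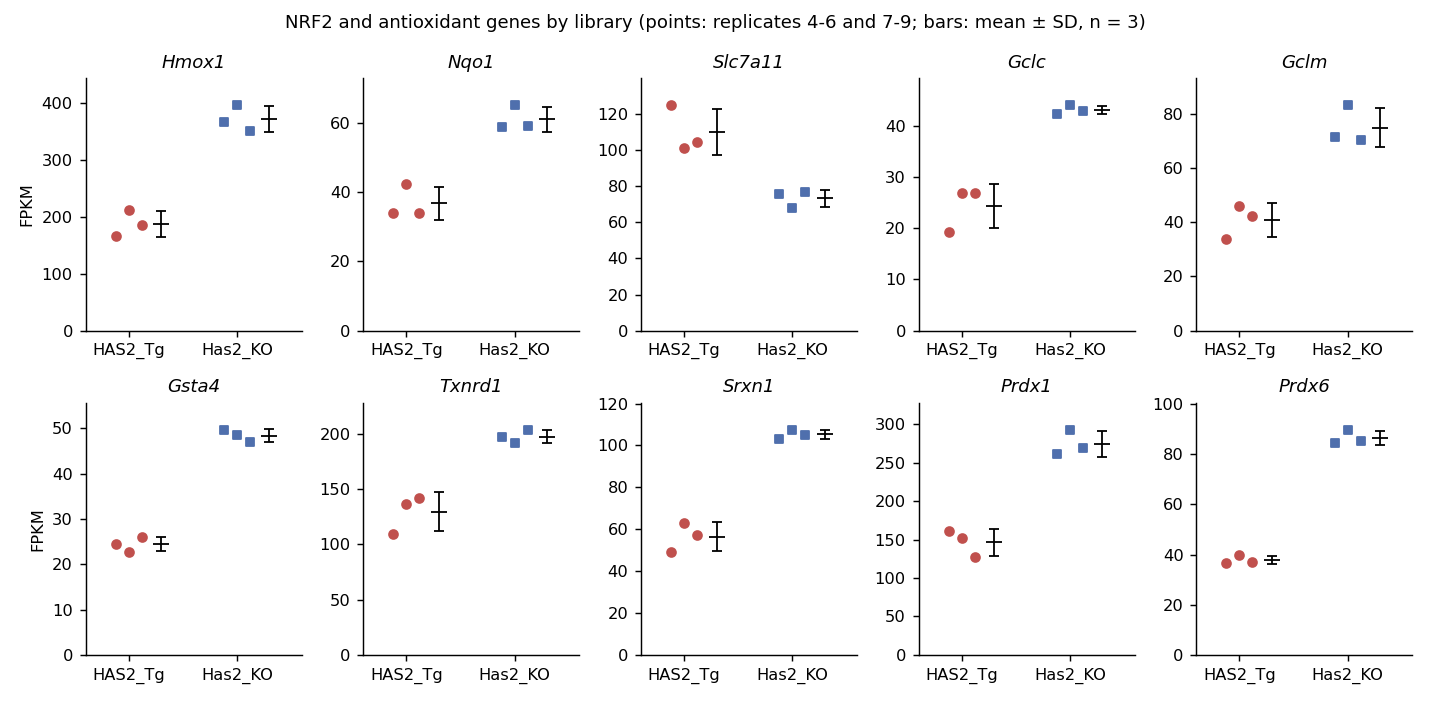
Deposited FPKM of the 10 genes in each library, HAS2_Tg (circles, replicates 4, 5 and 6 from left to right) beside Has2_KO (squares, replicates 7, 8 and 9), each axis starting at 0, with the mean and SD (n = 3) to the right of the points. Slc7a11 is the gene whose 3 HAS2_Tg libraries, at 101 to 125 FPKM, lie above the 3 Has2_KO libraries at 68.1 to 76.7 FPKM; the other 9 genes lie below.

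Hmox1 encodes the inducible heme oxygenase, which opens heme to biliverdin, iron and carbon monoxide, and lies on chromosome 8 from 75093618 to 75100593 (GRCm38, plus strand). It had 166, 212 and 185 FPKM in HAS2_Tg, against 367, 396 and 351 FPKM in Has2_KO. Every HAS2_Tg library was below every Has2_KO library by a wide margin, and the spread within each group was similar. The log2 fold change was -0.81 (SE 0.09, edgeR adjusted p = 2.36e-06). Hmox1 was the most abundant of the 10 genes per length, at a mean FPKM above 98.2% of the genes tested. Hmox2, the constitutive heme oxygenase, stood at 78.4 ± 3.46 FPKM in HAS2_Tg and 78.9 ± 3.18 FPKM in Has2_KO (SD, n = 3), overlapping groups, with a log2 fold change of 0.17 that did not pass (edgeR adjusted p = 0.0955). Macrophages are known for high Hmox1, and their markers moved in the same direction as Hmox1, as given above. The shares of endothelial, hepatocyte, neutrophil and cholangiocyte markers were lower in HAS2_Tg too. The part of other cells in the result for Hmox1, or for any other gene in this report, was not tested.

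Nqo1, a quinone reductase long used as a reporter of NRF2 activity, lies on chromosome 8 from 107388225 to 107403205 (minus strand). Its levels were 34.0, 42.3 and 34.1 FPKM in HAS2_Tg, against 59.0, 65.2 and 59.2 FPKM in Has2_KO. One library stood somewhat above the others in each group, replicate 5 in HAS2_Tg and replicate 8 in Has2_KO, without bringing the groups together. The log2 fold change was -0.56 (SE 0.09, edgeR adjusted p = 0.000143).

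The glutathione members were divided. Slc7a11 lies on chromosome 3 from 50364936 to 50499087 (minus strand) and exchanges glutamate for the cystine from which glutathione's cysteine is made. It reached 125, 101 and 105 FPKM in HAS2_Tg, against 75.7, 68.1 and 76.7 FPKM in Has2_KO. HAS2_Tg replicate 4, the library that was lowest of its group for 7 of the 10 genes, was the highest for Slc7a11. The log2 fold change was 0.76 (SE 0.10, edgeR adjusted p = 1.25e-05). Its expected counts were not whole numbers in any library, so part of its reads had been divided with another annotated transcript, which is not identified here; the other 9 genes had whole counts in all 6 libraries, within 0.005 of a read.

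Gclc and Gclm encode the catalytic and the modifier subunit of glutamate-cysteine ligase, which makes the first bond of glutathione. Gclc, on chromosome 9 from 77754535 to 77794489, had 19.3, 26.8 and 26.9 FPKM in HAS2_Tg, against 42.4, 44.0 and 43.0 FPKM in Has2_KO. Gclm, on chromosome 3 from 122245487 to 122267215, had 33.9, 46.1 and 42.3 FPKM in HAS2_Tg, against 71.2, 83.0 and 70.3 FPKM in Has2_KO. Both subunits fell by similar amounts, Gclc by 0.65 on the log2 scale (SE 0.10, edgeR adjusted p = 0.000136) and Gclm by 0.70 (SE 0.10, edgeR adjusted p = 5.64e-05). In both genes HAS2_Tg replicate 4 was clearly the lowest library. Gsta4, a glutathione S-transferase that favours the lipid peroxidation product 4-hydroxynonenal, lies on chromosome 9 from 78191966 to 78209349. It had 24.4, 22.8 and 25.9 FPKM in HAS2_Tg, against 49.7, 48.6 and 46.9 FPKM in Has2_KO, tight groups with a log2 fold change of -0.81 (SE 0.09, edgeR adjusted p = 3.19e-06).

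All 4 thioredoxin and peroxiredoxin members fell. Txnrd1, on chromosome 10 from 82833951 to 82897724, reduces thioredoxin with NADPH. It stood at 110, 137 and 142 FPKM in HAS2_Tg, against 197, 192 and 204 FPKM in Has2_KO, and its log2 fold change of -0.43 (SE 0.09, edgeR adjusted p = 0.00138) was the smallest of the 9 falls. Srxn1, on chromosome 2 from 152105524 to 152111376, encodes sulfiredoxin, which repairs overoxidised peroxiredoxins. Its values were 49.1, 62.9 and 57.4 FPKM in HAS2_Tg, against 103, 107 and 105 FPKM in Has2_KO, with a Has2_KO group far tighter than the HAS2_Tg group (log2 fold change -0.73, SE 0.08, edgeR adjusted p = 5.83e-06).

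Prdx1, a cytosolic peroxiredoxin that removes hydrogen peroxide, lies on chromosome 4 from 116685599 to 116700000. It had 161, 152 and 127 FPKM in HAS2_Tg, against 261, 293 and 269 FPKM in Has2_KO, and here replicate 6 rather than replicate 4 was the lowest HAS2_Tg library (log2 fold change -0.73, SE 0.09, edgeR adjusted p = 1.28e-05). Prdx6, on chromosome 1 from 161240112 to 161251210, reduces phospholipid hydroperoxides with glutathione. It had 36.6, 39.8 and 37.0 FPKM in HAS2_Tg, against 84.7, 89.8 and 85.5 FPKM in Has2_KO, the strongest fall of the 10 genes (log2 fold change -1.02, SE 0.07, edgeR adjusted p = 2.55e-08). Its relative spread in HAS2_Tg was the smallest of the 10, an SD of 4.52% of the mean.

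Ordered by fold change, the genes ran from Prdx6 through Hmox1, Gsta4, Prdx1, Srxn1, Gclm, Gclc and Nqo1 to Txnrd1 and then Slc7a11. Prdx6 differed from its neighbour Hmox1 by 0.21 on the log2 scale, more than their combined SE of 0.11. From Hmox1 to Txnrd1 every neighbour differed from the next by less than the combined SE of the pair. By that measure the order of neighbours is not resolved there. The combined SE takes the genes of a pair as independent, although both were measured in the same libraries. The ends of that run, Hmox1 at -0.81 (95% interval -0.98 to -0.64) and Txnrd1 at -0.43 (-0.61 to -0.26), had intervals that did not overlap. Slc7a11 lay 1.19 above Txnrd1 (combined SE 0.13). In each of the 10 genes the HAS2_Tg libraries were relatively more spread than the Has2_KO libraries, with SDs of 4.52% to 17.8% of the mean in HAS2_Tg and 1.88% to 9.45% in Has2_KO. HAS2_Tg replicate 4 also gave 1.59% of its counts to a single identifier left unnamed by the reference, against at most 0.156% in any other library. Without that replicate the 10 calls stood.

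**Figure D2:**
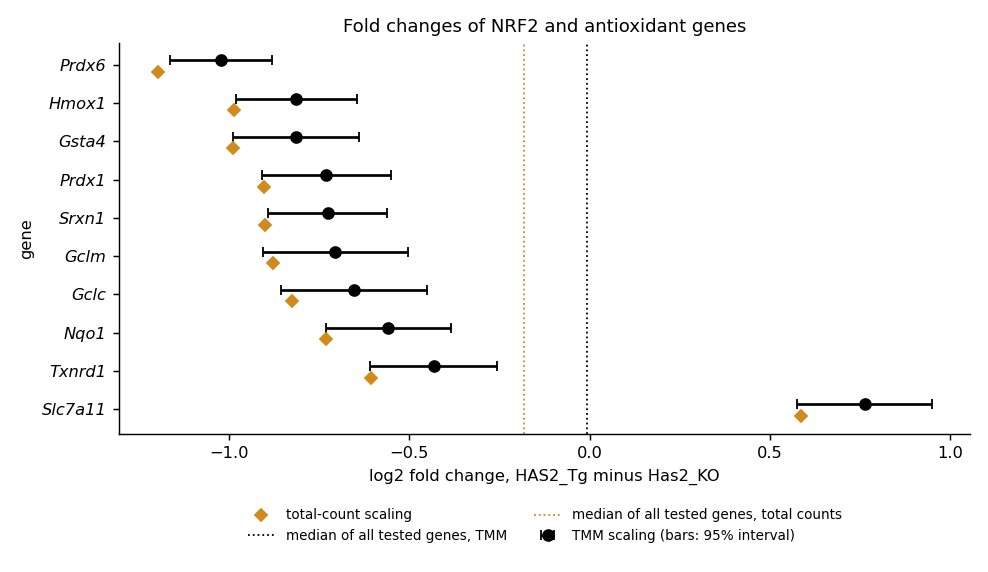
Log2 fold change of each gene (HAS2_Tg minus Has2_KO) with TMM scaling (circles, bars for the 95% interval) and with total counts (diamonds), and the median of all tested genes under each scaling as dotted lines. From Prdx6 at -1.02 to Txnrd1 at -0.43 the circles lie left of both lines, and Slc7a11 at 0.76 lies right of them; total counts moved all 10 genes and the median left together.

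Promoter windows, from 250 bases before to 50 bases after a start site, were at hand for 6 of the 10 genes from RefSeq (GRCm38.p6): Nqo1, Gclm, Srxn1, Prdx1, Slc7a11 and Txnrd1, the last with 3 start sites. The start sites used for Slc7a11, Gclm and Txnrd1 below lie inside the gene spans given above. The windows were searched on both strands for the core of the antioxidant response element, TGACNNNGC, where N is any base, for the AP-1 site TGANTCA, whose letters can overlap that core, and for the C/EBP-ATF response element TGATGNAA, which ATF4 is known to bind. Across all 32851 windows of the same length these letters occurred in 12.4%, 7.81% and 3.97%. The core occurred in a window of 4 of the 6 genes, Gclm, Prdx1, Srxn1 and Txnrd1. Txnrd1 had 3 windows, so this count by gene is not on the same footing as the shares by window. These 4 genes fell, as did Nqo1, which held no core, and 9 of the 10 genes fell in all. The window of Slc7a11, which rose, held no core and 2 C/EBP-ATF elements facing each other, and none of the other 5 genes held that element. Slc7a11 was the only 1 of the 10 genes that rose, and a link between these letters and direction was not tested. The 250 bases before the start site are shown for the 6 genes (for Txnrd1, at the start site whose window holds the core) to set Slc7a11 beside the genes that moved the other way, with or without a match; capitals mark the matches, read 5′ to 3′ on the gene's strand.
Slc7a11: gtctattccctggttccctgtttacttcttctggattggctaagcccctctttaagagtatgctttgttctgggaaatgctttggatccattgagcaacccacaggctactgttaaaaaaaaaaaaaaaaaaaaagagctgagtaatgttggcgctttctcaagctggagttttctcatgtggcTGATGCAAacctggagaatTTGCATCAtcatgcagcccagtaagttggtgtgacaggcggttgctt
Prdx1: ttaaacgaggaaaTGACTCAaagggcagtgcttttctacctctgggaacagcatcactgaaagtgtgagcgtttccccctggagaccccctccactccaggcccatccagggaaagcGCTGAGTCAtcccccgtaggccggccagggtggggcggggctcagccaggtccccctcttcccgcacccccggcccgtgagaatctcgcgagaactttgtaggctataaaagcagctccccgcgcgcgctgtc
Gclm: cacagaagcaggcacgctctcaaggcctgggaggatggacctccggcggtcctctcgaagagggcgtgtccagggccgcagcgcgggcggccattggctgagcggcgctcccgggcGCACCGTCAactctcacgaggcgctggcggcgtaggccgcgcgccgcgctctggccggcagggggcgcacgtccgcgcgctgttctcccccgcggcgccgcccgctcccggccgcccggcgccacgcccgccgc
Txnrd1: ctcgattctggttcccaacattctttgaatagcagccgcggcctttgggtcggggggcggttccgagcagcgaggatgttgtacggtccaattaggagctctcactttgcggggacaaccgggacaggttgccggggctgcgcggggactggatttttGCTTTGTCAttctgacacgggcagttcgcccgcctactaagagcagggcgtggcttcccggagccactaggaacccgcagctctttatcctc
Srxn1: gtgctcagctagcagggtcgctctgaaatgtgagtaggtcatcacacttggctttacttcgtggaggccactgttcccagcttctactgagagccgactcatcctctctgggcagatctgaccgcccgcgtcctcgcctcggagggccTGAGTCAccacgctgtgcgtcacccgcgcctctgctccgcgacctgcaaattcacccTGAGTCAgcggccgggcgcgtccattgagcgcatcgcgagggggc
Nqo1: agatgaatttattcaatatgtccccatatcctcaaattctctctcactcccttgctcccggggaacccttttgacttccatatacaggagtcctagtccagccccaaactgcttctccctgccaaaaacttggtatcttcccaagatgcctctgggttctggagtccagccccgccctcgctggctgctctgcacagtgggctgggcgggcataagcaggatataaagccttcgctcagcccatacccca

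The Slc7a11 stretch is chr3:50443614-50443863 on the minus strand, and its C/EBP-ATF elements lie at -66 to -59 and, on the opposite strand, at -47 to -40 from the start site. The Prdx1 stretch is chr4:116685349-116685598 (plus strand). Its core at -133 to -125, on the opposite strand, overlaps an AP-1 site, and a second AP-1 site lies at -237 to -231. In Gclm, chr3:122245307-122245556 (plus strand), the core at -134 to -126 is on the opposite strand, as is that of Txnrd1 at -92 to -84 in chr10:82858956-82859205 (plus strand). Srxn1, chr2:152105274-152105523 (plus strand), has AP-1 sites at -102 to -96 and -45 to -39, while its core lies at 29 to 37 after the start, beyond the bases shown. The Nqo1 stretch is chr8:107403206-107403455 (minus strand), and its window held none of the 3 motifs. A match of letters is not evidence of binding, and no match says nothing of elements further away.

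The genes that control NRF2 were lower in HAS2_Tg more often than higher. Of 16 regulators tested, 8 fell and 1 rose (median log2 fold change -0.17), beside 20.5% lower and 20.2% higher among all genes. Nfe2l2 itself had 95.6, 104 and 105 FPKM in HAS2_Tg, against 157, 154 and 150 FPKM in Has2_KO, and fell by 0.42 on the log2 scale (SE 0.07, edgeR adjusted p = 0.000213). Keap1 had 21.6, 21.7 and 20.6 FPKM in HAS2_Tg, against 24.6, 21.0 and 23.5 FPKM in Has2_KO, overlapping groups that did not pass (0.08, edgeR adjusted p = 0.444). Bach1, the repressor, fell too, with 4.52, 6.51 and 5.21 FPKM in HAS2_Tg, against 12.2, 10.9 and 11.3 FPKM in Has2_KO (log2 fold change -0.91, SE 0.11). The small MAF genes split, with Mafg at -0.60 (SE 0.11), Maff at -0.23 and Mafk at 0.31 (SE 0.08); Maff, chosen after its value was seen, passed at an edgeR adjusted p of 0.0302, and the Mafk call ended under total-count scaling (0.14, edgeR adjusted p = 0.152). Sqstm1, an autophagy adaptor that binds KEAP1, fell by 0.37 (SE 0.07), with 558 ± 9.76 FPKM in HAS2_Tg and 815 ± 23.3 FPKM in Has2_KO (SD, n = 3). Without HAS2_Tg replicate 5 the count of regulators called lower was 5, and without HAS2_Tg replicate 6 the count called higher was 2.

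The ratio of partner genes was formed in each library from FPKM, which is per length. Gclc stood to Gclm as 0.57, 0.583 and 0.636 in HAS2_Tg and as 0.596, 0.53 and 0.611 in Has2_KO, overlapping values (exact permutation p = 0.7, two-sided). Slc7a11 stood to Slc3a2, the heavy chain that carries the exchanger to the membrane, as 1.30, 0.956 and 1.07 in HAS2_Tg and as 0.529, 0.483 and 0.53 in Has2_KO. The ratio was higher in all 3 HAS2_Tg libraries and the 2 subunit genes moved in opposite directions, Slc3a2 at -0.34 (SE 0.07, edgeR adjusted p = 0.00113). Hmox1 to Hmox2 was 2.02, 2.74 and 2.45 in HAS2_Tg and 4.47, 5.05 and 4.62 in Has2_KO. Nfe2l2 to Keap1 was 4.42, 4.78 and 5.11 in HAS2_Tg and 6.38, 7.33 and 6.40 in Has2_KO. For these last 3 ratios the groups did not overlap and the exact permutation p was 0.1, the smallest that 3 against 3 libraries allow, and 0.133 after adjustment over the 4 ratios, so none can reach 0.05 in this design.

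**Figure D3:**
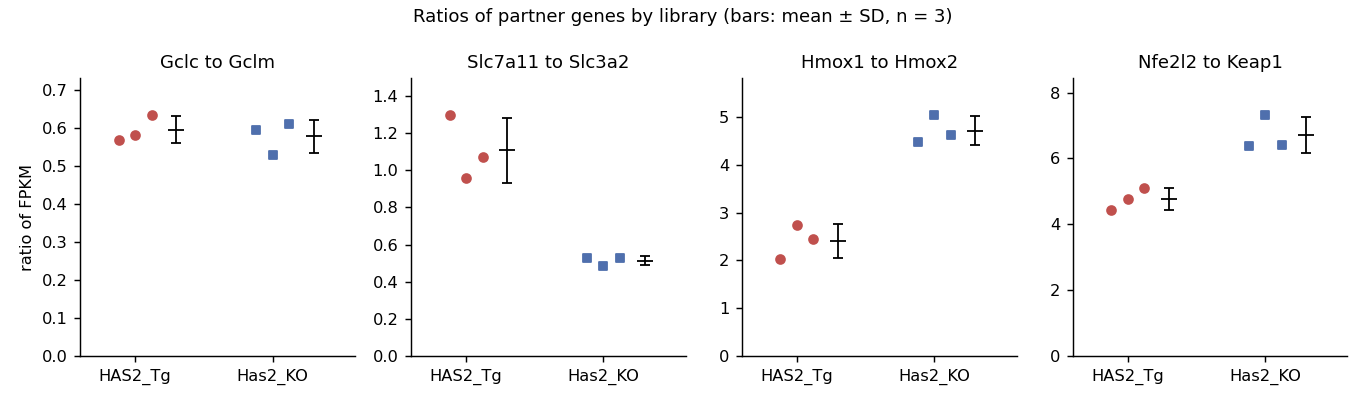
Ratio of FPKM of partner genes in each library, HAS2_Tg (circles) beside Has2_KO (squares), each axis starting at 0, with the mean and SD (n = 3). Gclc to Gclm overlaps between the groups near 0.6, Slc7a11 to Slc3a2 is higher in HAS2_Tg, and the other 2 ratios are lower in HAS2_Tg.

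Other genes often listed as NRF2 targets were more often lower than higher in HAS2_Tg. Of 31 tested, 18 fell and 5 rose (median log2 fold change -0.42), beside 20.5% lower and 20.2% higher among all genes. With total counts 22 fell and 3 rose, beside 37.1% lower and 11.3% higher among all genes. Of the 18, 3 (Abcc2, Abcc3 and Aldh3a1) reached the count filter through Has2_KO alone and could not have been called higher, so these counts are a description. The largest falls by adjusted p were in Akr1b8, an aldo-keto reductase, with 18.2, 18.2 and 16.3 FPKM in HAS2_Tg, against 93.0, 86.8 and 81.8 FPKM in Has2_KO (-2.14, SE 0.09), and in the export pumps Abcc4 (-1.48, SE 0.11) and Abcc3 (-3.64, SE 0.29, at most 0.15 FPKM in HAS2_Tg). Glutathione reductase, Gsr, had 15.1, 17.9 and 17.7 FPKM in HAS2_Tg, against 30.9, 32.2 and 31.3 FPKM in Has2_KO (-0.72, SE 0.08, edgeR adjusted p = 4.28e-06). Txn1, the thioredoxin that Txnrd1 reduces, was 189 ± 4.48 FPKM in HAS2_Tg and 248 ± 12.9 FPKM in Has2_KO (SD, n = 3; -0.22, edgeR adjusted p = 0.0239), a call that ended without HAS2_Tg replicate 5 (edgeR adjusted p = 0.0535) or Has2_KO replicates 7 (0.104) or 9 (0.133). Against the direction of most, Ephx1, microsomal epoxide hydrolase, had 265, 249 and 212 FPKM in HAS2_Tg, against 135, 154 and 150 FPKM in Has2_KO (0.90, SE 0.09), the malic enzyme Me1 reached 0.56 (SE 0.07) and the glutathione S-transferase Gstm1 0.62 (SE 0.09).

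Of 19 heme and iron genes tested, 14 fell and none rose (median -0.33), beside 20.5% lower and 20.2% higher among all genes. With total counts 15 fell and none rose, beside 37.1% lower and 11.3% higher among all genes. These counts are a description, since 3 of the 14 (Lcn2, Cd163 and Hpx) reached the count filter through Has2_KO alone. Cd163 is also on the macrophage list, whose markers took 0.00134% to 0.00159% of counts in HAS2_Tg and 0.0677% to 0.0724% in Has2_KO, and the part of other cells in this list's result was not tested. Biliverdin reductase B, Blvrb, which acts after heme oxygenase, had 69.7, 76.8 and 73.4 FPKM in HAS2_Tg, against 147, 142 and 142 FPKM in Has2_KO (-0.80, SE 0.07; chosen after its value was seen). The ferritin chains that store the released iron fell too, Fth1 at 2664 ± 71.1 FPKM in HAS2_Tg and 4489 ± 125 FPKM in Has2_KO (-0.58, SE 0.08) and Ftl1 at 1575 ± 204 FPKM in HAS2_Tg and 2230 ± 132 FPKM in Has2_KO (-0.33, edgeR adjusted p = 0.0147; SD, n = 3). The Ftl1 call ended without Has2_KO replicate 8 (edgeR adjusted p = 0.0788). Cp, the ferroxidase ceruloplasmin, was 18.4 ± 1.58 FPKM in HAS2_Tg and 66.6 ± 1.48 FPKM in Has2_KO (-1.63), and the iron importer Slc11a2 had -1.28. Lcn2, a siderophore-binding protein, was listed at 0, 0.1 and 0.1 FPKM in HAS2_Tg and at 38.4, 49.6 and 41.9 FPKM in Has2_KO. Without Has2_KO replicate 9 the count of this list called lower was 9.

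Of 18 tested genes of cystine uptake and glutathione turnover, 5 rose and 5 fell (median 0.02), beside 20.2% higher and 20.5% lower among all genes. With total counts 2 rose and 6 fell (median -0.16), beside 11.3% higher and 37.1% lower among all genes. Glrx, glutaredoxin, fell the most by adjusted p, with 7.05, 7.92 and 6.82 FPKM in HAS2_Tg, against 20.1, 19.7 and 19.8 FPKM in Has2_KO (-1.28, SE 0.10), followed by the glutathione conjugate exporter Abcc1 (-0.91, SE 0.10) and Gsr. Gss, glutathione synthetase, which acts after glutamate-cysteine ligase, was 12.5 ± 0.79 FPKM in HAS2_Tg and 16.4 ± 0.58 FPKM in Has2_KO (SD, n = 3) and did not pass (-0.22, edgeR adjusted p = 0.0716), although it did with total counts (-0.39, edgeR adjusted p = 0.00308). Among those higher were the neutral amino acid carrier Slc1a4 (0.62, SE 0.11), Ggt5, a gamma-glutamyl transferase (0.52; not called in the limma fits on FPKM), and Glrx3 (0.30). The Glrx3 call was lost under total-count scaling (0.12, edgeR adjusted p = 0.225) and without Has2_KO replicate 8 (edgeR adjusted p = 0.0556), and without that replicate 2 genes of the list were called higher.

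Of 18 glutathione S-transferases tested other than Gsta4, 3 rose and 6 fell (median 0.17, and -0.01 with total counts), against 20.2% higher and 20.5% lower among all genes, so the count higher is not above that background and the count lower is little above it. Mgst1, a microsomal transferase, fell to 12.4 ± 1.89 FPKM in HAS2_Tg, against 36.8 ± 2.78 FPKM in Has2_KO (-1.40, SE 0.12), and Gstp1, the most abundant transferase in Has2_KO, to 428 ± 36.8 FPKM, against 882 ± 35.6 FPKM in Has2_KO (-0.87, SE 0.08; SD, n = 3). The alpha-class gene Gsta3 fell with Gsta4 (-1.44, SE 0.19), at a far lower level of 1.40 ± 0.17 FPKM in HAS2_Tg and 4.23 ± 0.31 FPKM in Has2_KO. Gstt1 (1.19, SE 0.14), Gstm1 and Gstm2 (0.51, SE 0.09) rose. Genes of this family resemble each other in sequence, so reads can be shared between members and their split is uncertain. Without HAS2_Tg replicate 6, 8 genes of the list were called higher.

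Enzymes of peroxide and superoxide removal outside the 10 genes moved in both directions. Of 27 tested, 11 rose and 4 fell (median 0.20), beside 20.2% higher and 20.5% lower among all genes (median -0.01). With total counts 5 rose and 8 fell (median 0.03), beside 11.3% higher and 37.1% lower among all genes (median -0.18). The counts moved with scaling, as did those of all genes, while the list median lay above that of all genes under both scalings. The superoxide dismutases differed from each other. Sod3, the secreted form, had 240, 191 and 173 FPKM in HAS2_Tg, against 80.2, 86.5 and 81.7 FPKM in Has2_KO, and rose by 1.46 on the log2 scale (SE 0.11, edgeR adjusted p = 7.48e-08). Sod2, the mitochondrial form, which NF-kB is known to induce, had 23.2, 23.3 and 22.2 FPKM in HAS2_Tg, against 84.5, 98.6 and 93.7 FPKM in Has2_KO, and fell by 1.84 (SE 0.08, edgeR adjusted p = 1.31e-10). Sod1, the cytosolic form, overlapped between the groups at 354 ± 36.0 FPKM in HAS2_Tg and 351 ± 13.2 FPKM in Has2_KO (SD, n = 3) and did not pass (0.19, edgeR adjusted p = 0.0974), except without HAS2_Tg replicate 5 (0.27, edgeR adjusted p = 0.0284).

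Catalase, Cat, was 84.2 ± 8.21 FPKM in HAS2_Tg and 103 ± 6.83 FPKM in Has2_KO (SD, n = 3) and did not pass (-0.12, edgeR adjusted p = 0.248), although it did with total counts (-0.30, edgeR adjusted p = 0.00988). The glutathione peroxidases Gpx1 and Gpx4, the second of which guards against lipid peroxidation, had higher levels by 0.50 (edgeR adjusted p = 0.00602) and 0.39 (edgeR adjusted p = 0.0145) on the log2 scale, with FPKM values that overlapped. The limma fits on FPKM called neither gene. The Gpx4 call ended under total-count scaling (0.21, edgeR adjusted p = 0.122) and without Has2_KO replicate 9 (edgeR adjusted p = 0.0718). The methionine sulfoxide reductases Msrb3 (0.52, SE 0.07) and Msrb1 (0.70, SE 0.12) rose, and Selenop, the selenium carrier selenoprotein P, fell to 141 ± 16.2 FPKM in HAS2_Tg, against 419 ± 2.43 FPKM in Has2_KO (-1.40, SE 0.09). Without Has2_KO replicate 9, 2 genes of the list were called lower. Peroxiredoxins other than Prdx1 and Prdx6 gave log2 fold changes of 0.06 for Prdx2, -0.17 for Prdx3, 0.33 for Prdx4 and 0.34 for Prdx5. Of these, Prdx4 (edgeR adjusted p = 0.0197) and Prdx5 (edgeR adjusted p = 0.024) passed, with FPKM values that overlapped between the groups. These 4 were chosen after their values were seen.

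**Figure D4:**
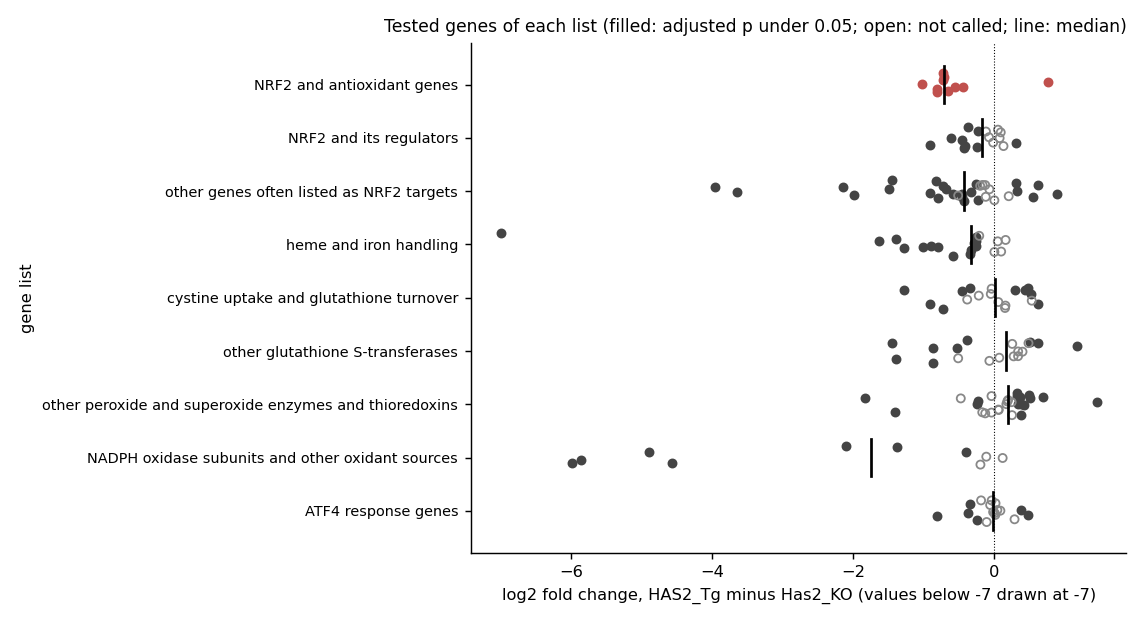
Log2 fold change (HAS2_Tg minus Has2_KO) of every tested gene of the 10 members and of 8 related lists, filled where the edgeR adjusted p was under 0.05, with a line at each list's median; Lcn2, below -7, is drawn at -7. The members, apart from Slc7a11 at 0.76, lie between -1.02 and -0.43, whereas the other peroxide enzymes and the transferases scatter on both sides of 0.

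Of 10 oxidant-producing genes tested, 7 fell and none rose, beside 20.5% lower and 20.2% higher among all genes. With total counts 9 fell and none rose, beside 37.1% lower and 11.3% higher among all genes. Of the 7, 5 reached the count filter through Has2_KO alone, so these counts are a description. Cybb, the catalytic subunit of the phagocyte NADPH oxidase, had 0.1, 0.17 and 0.09 FPKM in HAS2_Tg, against 7.96, 8.13 and 8.18 FPKM in Has2_KO (-5.87, SE 0.17). Ncf1, another subunit, had a log2 fold change of -4.56, and Ncf4, chosen after its value was seen, was listed at 0, 0.12 and 0 FPKM in HAS2_Tg and at 3.68, 3.16 and 2.73 FPKM in Has2_KO. Macrophage markers moved with these genes, and their part in the result was not tested. Nox4, the oxidase described in fibroblasts, had at most 0.07 FPKM in any library and was not tested. Without HAS2_Tg replicate 6, 1 gene of the list was called higher.

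ATF4, a stress-induced factor, is known to drive Slc7a11 independently of NRF2. Of 17 ATF4 response genes tested, 2 rose and 4 fell (median -0.01), beside 20.2% higher and 20.5% lower among all genes. With total counts 1 rose and 7 fell, beside 11.3% higher and 37.1% lower among all genes. Under neither scaling was the count lower far from the share of all genes, and the count higher was not above it. Atf4 itself had 223, 216 and 235 FPKM in HAS2_Tg, against 257, 241 and 216 FPKM in Has2_KO, overlapping groups that did not pass (0.09, edgeR adjusted p = 0.392). Ddit3, an ATF4-induced transcription factor, was 104 ± 3.80 FPKM in HAS2_Tg and 84.0 ± 7.54 FPKM in Has2_KO (SD, n = 3) and rose by 0.49 on the log2 scale (SE 0.08), as did the serine enzyme Psph (0.39), whose call ended under total-count scaling (0.21, edgeR adjusted p = 0.132) and without Has2_KO replicate 9 (edgeR adjusted p = 0.0751). Cebpb fell by 0.80 (SE 0.10) and Ddit4 by 0.37; the Ddit4 call ended without Has2_KO replicate 7 (edgeR adjusted p = 0.0601) or 9 (0.0743). Without Has2_KO replicate 9 the list held 1 gene called higher and 2 called lower.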

How the data were processed

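RNA was sequenced from 6 libraries of primary mouse hepatic stellate cells, 3 per genotype. The tool RSEM and the build mm10 are named per the submitters' processing notes; no version of it is stated there. The deposited expected counts are the authors' estimates of reads per gene, per the file headers, and were rounded to whole numbers. The deposited FPKM values are the authors' length- and depth-scaled levels, per the file headers, with 0.01 as the lowest. A gene missing from a file was set to 0 (12658 cells). RefSeq tables of GRCm38.p6 named 17857 of 17909 identifiers.

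After filterByExpr and TMM scaling, robust quasi-likelihood fits in edgeR compared the 13014 remaining genes between groups (two-sided; Benjamini-Hochberg threshold 0.05). Each SE was obtained as log2 fold change over the root of F. Between libraries of a group, chi-square per degree of freedom was 2.32 to 3.17 in Has2_KO and 6.24 to 31.5 in HAS2_Tg. Each library was treated as its own sample, although these values cannot show that the libraries came from separate animals. Single values used exact permutation. Alternatives were DESeq2 size factors, total counts, no filter, a Wald test in DESeq2, 3 limma fits, and each library left out. The limma fits used log2(FPKM + 1) or log2(FPKM + 0.1) where FPKM reached 1 in 3 libraries, and log2(FPKM + 1) unfiltered. Promoter windows came from RefSeq.

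The members and the 15 lists were chosen with earlier results of these data known. Named genes were the members, 21 genes fixed by name, and up to 3 called genes per list and direction by adjusted p; some genes that the rule takes were left out of the text. The script was checked on simulated counts. Software was matplotlib 3.10.9, scipy 1.17.1, numpy 2.4.6, pandas 2.3.3 and Python 3.11.15, with DESeq2 1.42.0, limma 3.58.1 and edgeR 4.0.16 under R 4.3.3.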

Additional observations from a re-analysis of the deposited data

How the results depend on the processing

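Under 13 alternatives each, the 10 member genes kept direction and call in all 130 values, with log2 fold changes from -1.20 to -0.997 for Prdx6, -0.62 to -0.34 for Txnrd1 and 0.57 to 0.84 for Slc7a11. The largest adjusted p was 0.0126, for Txnrd1. Of the values of other named genes, 903 kept their side of the threshold, 31 lost and 9 gained it, and none reversed.

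Counts of calls depended on scaling. Genes called higher in HAS2_Tg numbered 2625, against 1477 with total counts, 1380 with limma on log2(FPKM + 1), 1353 with log2(FPKM + 0.1) and 1334 without a filter, and lower 2673, against 4827, 4173, 4101 and 4421 in the same order. In that order the counts called higher were 0 in each for the regulators, 3 in each for other targets, 2, 2, 1 and 2 for glutathione turnover (3 with the DESeq2 Wald test), 5, 4, 4 and 4 for peroxide enzymes and 1 in each for ATF4 genes, and those called lower were 8, 8 and 7 for peroxide enzymes with the first 3 and 7 in each for ATF4 genes. Stellate markers called lower numbered 1, 2 and 2 with the first 3. Hepatocyte markers called lower numbered 11 without the count filter, 3 and 3 with the filtered limma fits and 12 without their filter, and neutrophil markers 1, 1 and 4 in the limma fits. As shares of summed FPKM, the log2 ratio of HAS2_Tg to Has2_KO was -4.79 for endothelial (main -5.51), -0.76 for neutrophil (-0.47), -3.82 for cholangiocyte (-3.16) and 1.56 for portal fibroblast and smooth muscle markers (1.99).

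With each library left out in turn, the counts called lower ranged from 5 to 7 for regulators, 2 to 5 for peroxide enzymes, 9 to 15 for heme and iron genes, 2 to 4 for ATF4 genes and 0 to 1 for stellate markers. Those called higher ranged from 1 to 2 for regulators, 2 to 5 for glutathione turnover, 3 to 8 for glutathione S-transferases, 0 to 1 for oxidant sources and 1 to 3 for ATF4 genes.

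No paired analysis was possible because the groups share no replicate numbers. With 3 libraries a group, single-value tests cannot go below 0.1.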
